A study of Homo sapiens with 12 samples.

Results

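The clustered histone genes are the genes for the linker histone H1 and the core histones H2A, H2B, H3 and H4 that lie side by side in blocks of the human genome. They were taken from the deposited gene counts by symbol, as H1-1 to H1-6 or as H2AC, H2BC, H3C or H4C followed by a number alone. Of 69 such symbols, 41 had 10 or more counts in at least 3 of the 12 libraries and are described here, out of 78930 genes in the counts. They comprise 3 of 6 H1 genes, 12 of 17 H2A genes, 13 of 18 H2B genes, 5 of 13 H3 genes and 8 of 15 H4 genes. Of the 41, 29 lie on chromosome 6, 11 on chromosome 1 and 1, H4C16, on chromosome 12. Just inside the count rule was H1-4, with counts of 10, 10 and 13 in the FL-NPM1c libraries and 1 to 7 elsewhere. Just outside were 7 genes with 10 or more counts in a single library, H2AC16, H2AC21, H2BC17, H3C1, H3C11, H4C3 and H4C4. The other 21 symbols had no library with 10 counts. Of the 41 members, 26 had at least 10 counts in every library.

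Per the treatment protocol the libraries came from OCI-AML3, a human acute myeloid leukaemia cell line with the cytoplasmic mutant of nucleophosmin (NPM1c), in a version labelled NPM1c-degron and, in the study design, NPM1WT/Degron. A degron is a tag through which a small molecule, here dTAG-13, sends the tagged protein to degradation. The group dTAG FL-NPM1c carried a lentiviral FL-NPM1c-mCherry construct, the group dTAG C-body null a construct labelled Cbodynull-mCherry, and the group dTAG mCherry the fluorescent protein mCherry alone. At 48 hours after transduction these 3 groups were given 500 nM dTAG-13, with sorting of the mCherry-positive fraction after a further 24 hours. The group NTC DMSO is titled as solvent-treated, and NTC is not spelled out. Its genotype label names the degron without a construct and its treatment label reads dTAG, so mCherry and NTC DMSO libraries may differ in more than the degrader. Each group had 3 libraries. The cell line label carries a different number in each sample, running from OCI-AML3 to OCI-AML14, while the protocol of every sample names OCI-AML3. The labels name neither the clones behind the degron cells nor separate cultures for the replicates, and p-values therefore cover the spread among libraries, which may be technical.

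As background, cells need a large supply of histones when they copy their DNA, and the clustered genes provide it. Their messages are made mainly in S phase, when cyclin E and CDK2 activate the coactivator NPAT at these genes. Most of the messages have no poly(A) tail. They end just after a stem-loop that binds the protein SLBP, and a complex guided by the U7 small nuclear RNA cuts them there. Several clustered genes can also give longer, polyadenylated messages that run past the stem-loop, a form described in differentiated and non-dividing cells. The libraries were made with a stranded kit that selects poly(A) RNA, so the counts sample mainly the polyadenylated forms, and the tailless messages are largely outside this measurement.

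The stem-loop is shown for members that behaved differently below. A search of the GENCODE 29 transcripts for its 16 bases found it in the transcripts of 28 of the 41 members. Several of the others have short annotated transcripts, such as H2BC12 with 381 bases, H2AC20 with 390 and H4C12 with 312. A stem-loop past the annotated end would be missed, so members without a match may still have it. The stem-loop is in capitals, with 5 bases on either side.
H2BC21: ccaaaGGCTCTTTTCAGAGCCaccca
H2BC9: ccaaaGGCTCTTTTCAGAGCCactta
H2BC5: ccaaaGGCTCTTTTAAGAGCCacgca
H4C14: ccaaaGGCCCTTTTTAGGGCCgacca
H4C11: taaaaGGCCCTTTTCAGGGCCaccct
The H2BC21 and H2BC9 stem-loops were spelled alike. In H2BC21 the annotated transcript ran on for 1729 bases after the stem-loop window, in H2BC9 for 1640 bases, in H2BC5 for 39 and in H4C11 for 6.

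H2A and H2B genes often stand back to back and share the DNA between their starts. Of the members, 8 such pairs had both genes present, with 194 to 248 bases between the starts. The sequences between the genes of 2 pairs are printed because the members of the first pair differed most in response and those of the second both rose. They come from RefSeq on GRCh38.p14, plus strand, read towards the H2A gene. Capitals mark 3 motifs searched on both strands, the TATA box TATAAA, the CCAAT box CCAAT and the octamer ATTTGCAT, known as the binding sequence of OCT1 in H2B promoters.
H2BC21 to H2AC20, chr1:149886683-149886917: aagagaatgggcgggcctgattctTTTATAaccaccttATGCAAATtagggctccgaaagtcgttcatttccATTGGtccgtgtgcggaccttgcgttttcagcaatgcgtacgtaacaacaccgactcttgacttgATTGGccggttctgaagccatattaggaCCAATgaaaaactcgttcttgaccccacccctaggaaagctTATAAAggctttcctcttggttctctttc
H2BC4 to H2AC6, chr6:26123927-26124171: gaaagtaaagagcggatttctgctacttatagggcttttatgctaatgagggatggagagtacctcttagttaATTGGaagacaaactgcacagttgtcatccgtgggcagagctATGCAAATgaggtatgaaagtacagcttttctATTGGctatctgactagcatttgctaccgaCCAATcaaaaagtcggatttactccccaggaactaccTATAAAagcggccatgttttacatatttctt
The 150 bases before the start of H2BC9 are shown as well, since that gene moved against the others.
H2BC9, chr6:26251464-26251613: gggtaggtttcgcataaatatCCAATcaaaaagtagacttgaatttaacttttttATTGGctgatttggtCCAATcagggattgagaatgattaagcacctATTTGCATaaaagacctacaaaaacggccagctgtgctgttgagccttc
Between H2BC21 and H2AC20 the search found a TATA box facing each gene, 3 CCAAT boxes and 1 octamer. Between H2BC4 and H2AC6 it found 1 TATA box, facing H2AC6, with 3 CCAAT boxes and 1 octamer. The H2BC9 stretch held 3 CCAAT boxes and 1 octamer.

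Among the 40 members with a RefSeq promoter, the 250 bases before the start held a TATA box in 60.0%, against 10.7% of all 35116 promoters. A CCAAT box was present in 82.5% of members, against 32.0% of all promoters, and the octamer in 42.5%, against 1.63%. The octamer was in 69.2% of H2B and 58.3% of H2A members and in 0.0% of the 8 H4 members. Back-to-back starts lie closer than 250 bases, so a motif between them was counted for both genes, whichever it faces. The H2A and H2B shares therefore include the same sites. A match of letters is a description and not evidence that a factor binds.

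The 12 libraries held 30.5 M to 59.9 M gene counts (median 41.0 M). Levels are given as CPM, the standard per-million scaling of counts by effective library total, not divided by transcript length, so levels of different genes are not ranked. NPM1 transcript, which includes construct and endogenous RNA, averaged 1651 ± 38.9 CPM in FL-NPM1c, 1922 ± 21.7 CPM in C-body null, 1252 ± 171 CPM in mCherry and 1430 ± 117 CPM in DMSO cells (SD, n = 3 each). It does not measure the degraded protein. Among blast markers CD33 averaged 58.1 to 80.6 CPM per group, while KIT was at 0 in every group mean and CD34 at or under 0.22 CPM. Summed markers of T and NK cells stayed between 0.725 and 1.37 CPM over all libraries. Those of B and plasma cells were 5.69 to 6.43 CPM in FL-NPM1c, 1.48 to 2.10 in C-body null, 1.87 to 2.17 in mCherry and 2.80 to 3.25 in DMSO libraries. Erythroid and megakaryocyte markers summed to 1.97 to 2.55 CPM in FL-NPM1c, 0.477 to 0.852 in C-body null, 0.768 to 1.11 in mCherry and 0 to 0.275 in DMSO libraries. The FL-NPM1c libraries were the highest for both lists. Of the epithelial and fibroblast list EPCAM was at 0, while FN1, which macrophages also express, averaged 685 CPM in FL-NPM1c, 509.9 CPM in C-body null, 516 CPM in mCherry and 62.6 CPM in DMSO cells. COL1A2, a collagen gene of fibroblasts, averaged 1.36 CPM in FL-NPM1c, 0.207 CPM in C-body null, 0.0784 CPM in mCherry and 0.54 CPM in DMSO cells. It was called lower in mCherry and C-body null cells and higher in FL-NPM1c cells, each against DMSO, with log2 fold changes of -2.72 ± 0.45, -1.39 ± 0.37 and 1.34 ± 0.27. It was also called higher in FL-NPM1c cells than in mCherry cells, by 4.06 ± 0.39. Its part in the histone results was not tested.

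The comparison made for loss of NPM1c was dTAG mCherry against NTC DMSO. The DMSO label names no construct, so these groups may also differ by the mCherry construct. The separate parts of construct, degrader and loss of NPM1c were not tested. Clustered histone genes were higher in the mCherry cells. Summed over 38 members, with genes of near-identical counts entered a single time, they reached 113.8, 98.3 and 92.0 CPM in the mCherry libraries, against 45.1, 43.1 and 42.2 CPM in the DMSO libraries. The lowest mCherry library lay above the highest DMSO library. The groups averaged 101 ± 11.2 and 43.5 ± 1.49 CPM (mCherry and DMSO cells, SD, n = 3 each). In bulk RNA, a larger share of cells with these messages and more message per cell cannot be told apart.

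By edgeR's quasi-likelihood test, with p-values adjusted over all 24064 genes tested and called under 0.05, 21 of the 40 tested members rose and 1 fell in mCherry against DMSO cells. Among all genes 12.9% were called higher and 9.69% lower (22.6% in all). The median log2 fold change of the members was 0.79, against -0.0016 over all genes tested. H1-4 was too low to test. The 21 count the copies H2AC18 and H2AC19, and H4C14 and H4C15, as separate genes. Of the 34 members with 10 or more counts in a library of both groups, 20 rose and 1 fell. The count of higher members ran from 17 to 21 when each of the 6 libraries was left out in turn.

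**Figure D1:**
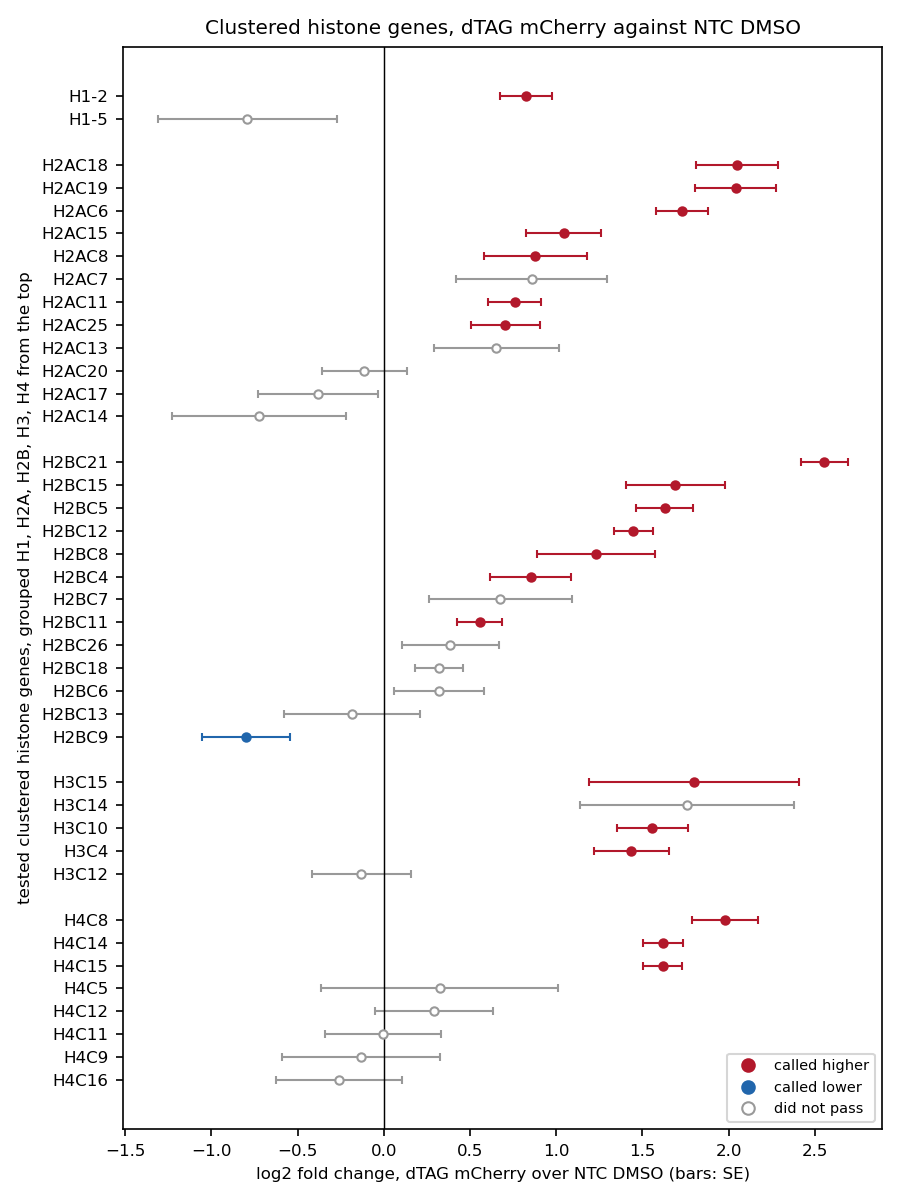
Log2 fold change of each of the 40 tested clustered histone genes, dTAG mCherry over NTC DMSO, with SE bars; filled points passed the test. Called genes run from H2BC11 at 0.56 to H2BC21 at 2.56, with H2BC9 at -0.80 alone on the lower side among those called.

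H2B genes, whose protein pairs with H2A in the nucleosome, held the largest single change. H2BC21 (chromosome 1, 149884459 to 149886682, minus strand) had 10.5, 8.81 and 10.2 CPM in mCherry cells, against 1.74, 1.80 and 1.45 CPM in DMSO cells. Every mCherry library was well above every DMSO library, and the log2 fold change was 2.56 ± 0.13 (SE, adjusted p = 1.02e-09). The mouse counterpart of this gene is known for an H2B variant of olfactory neurons. H2BC12 (chromosome 6, 27138293 to 27146858, minus strand) had 29.9, 23.2 and 24.6 CPM in mCherry cells, against 10.3, 8.90 and 9.25 CPM in DMSO cells. It rose by 1.45 ± 0.11 (adjusted p = 1.09e-07), and its annotated span overlaps H4C9. H2BC5 rose by 1.63 ± 0.17, with 5.14, 3.52 and 3.88 CPM in mCherry cells, against 1.39, 1.30 and 1.35 CPM in DMSO cells. H2BC15, H2BC8, H2BC4 and H2BC11 also rose, by 1.69, 1.23, 0.85 and 0.56.

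In all, 7 of 13 H2B genes rose and 1 fell. H2BC9 (chromosome 6, 26251614 to 26252075, plus strand) had 0.525, 0.643 and 0.468 CPM in mCherry cells, against 0.893, 1.00 and 1.00 CPM in DMSO cells. These came from 19, 30 and 14 counts in mCherry and 36, 40 and 38 counts in DMSO libraries. It fell by 0.80 on the log2 scale (SE 0.26, adjusted p = 0.0331), but the call was kept without mCherry 2 and lost without each of the other 5 libraries, with adjusted p between 0.0312 and 0.0881. H2BC9 and H2BC21 share the stem-loop printed above and the long annotated transcript after it, while their fold changes had opposite signs.

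Among H2A genes 7 of 12 rose. H2AC18 and H2AC19 encode the same H2A protein on opposite strands of chromosome 1. Their counts differed by at most 3 in any library and were equal in 6, so reads of these copies were not separable. H2AC19 had 7.02, 6.52 and 3.88 CPM in mCherry cells, against 1.71, 1.23 and 1.32 CPM in DMSO cells. The mCherry 3 library was the lowest of its group and still above all DMSO libraries. The log2 fold changes of H2AC18 and H2AC19 were 2.05 ± 0.24 and 2.04 ± 0.23. H2AC6 (chromosome 6, 26124172 to 26124690, plus strand) had 14.7, 10.5 and 11.2 CPM in mCherry cells, against 4.27, 3.78 and 2.91 CPM in DMSO cells, and rose by 1.73 ± 0.15 (adjusted p = 3.12e-07). H2AC15, H2AC8, H2AC11 and H2AC25 rose by 1.04, 0.88, 0.76 and 0.71.

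The H3 and H4 genes encode the central pair of the nucleosome core. Of 5 tested H3 genes 3 rose. H3C10 had 2.18, 2.29 and 2.51 CPM in mCherry cells, against 0.769, 0.825 and 0.766 CPM in DMSO cells, and rose by 1.56 ± 0.21 (adjusted p = 3.63e-05). H3C4, whose span overlaps H2AC7, rose by 1.44 ± 0.22, with 0.967, 1.33 and 1.20 CPM in mCherry cells, against 0.471, 0.425 and 0.396 CPM in DMSO cells. H3C15 rested on few reads, 12, 21 and 5 counts in mCherry cells, against 6, 5 and 0 counts in DMSO cells. Its log2 fold change was 1.80 ± 0.61 (adjusted p = 0.0433), and that of its copy H3C14, equal to it in 10 libraries, was 1.76 ± 0.62 (adjusted p = 0.0519). The H3C15 call was lost without DMSO 2, DMSO 3, mCherry 1 or mCherry 2, with adjusted p from 0.0215 to 0.164 over the 6 refits.

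Of 8 H4 genes, which encode the same H4 protein from different loci, 3 rose. H4C14 (chromosome 1, 149832657 to 149833052, plus strand) had 8.12, 7.51 and 6.98 CPM in mCherry cells, against 2.70, 2.23 and 2.43 CPM in DMSO cells. It rose by 1.62 ± 0.11 (adjusted p = 3.22e-08), and its copy H4C15, whose counts differed from it by at most 15 in a library, rose by 1.62 ± 0.12. H4C8 had 2.90, 2.79 and 2.41 CPM in mCherry cells, against 0.744, 0.825 and 0.476 CPM in DMSO cells, and rose by 1.98 ± 0.19. H4C11 and H4C12 did not pass, with log2 fold changes of 0.00 ± 0.34 and 0.29 ± 0.34.

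Of the 2 tested H1 genes, whose proteins bind the DNA between nucleosomes, H1-2 rose. Its level was 4.56, 4.74 and 3.64 CPM in mCherry cells, against 2.43, 2.18 and 2.75 CPM in DMSO cells, a log2 fold change of 0.82 ± 0.15 (adjusted p = 0.00086). H1-5 had 0.193, 0.172 and 0.0334 CPM in mCherry cells, against 0.322, 0.175 and 0.238 CPM in DMSO cells (log2 fold change -0.79 ± 0.52, adjusted p = 0.306). Its groups overlapped.

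**Figure D2:**
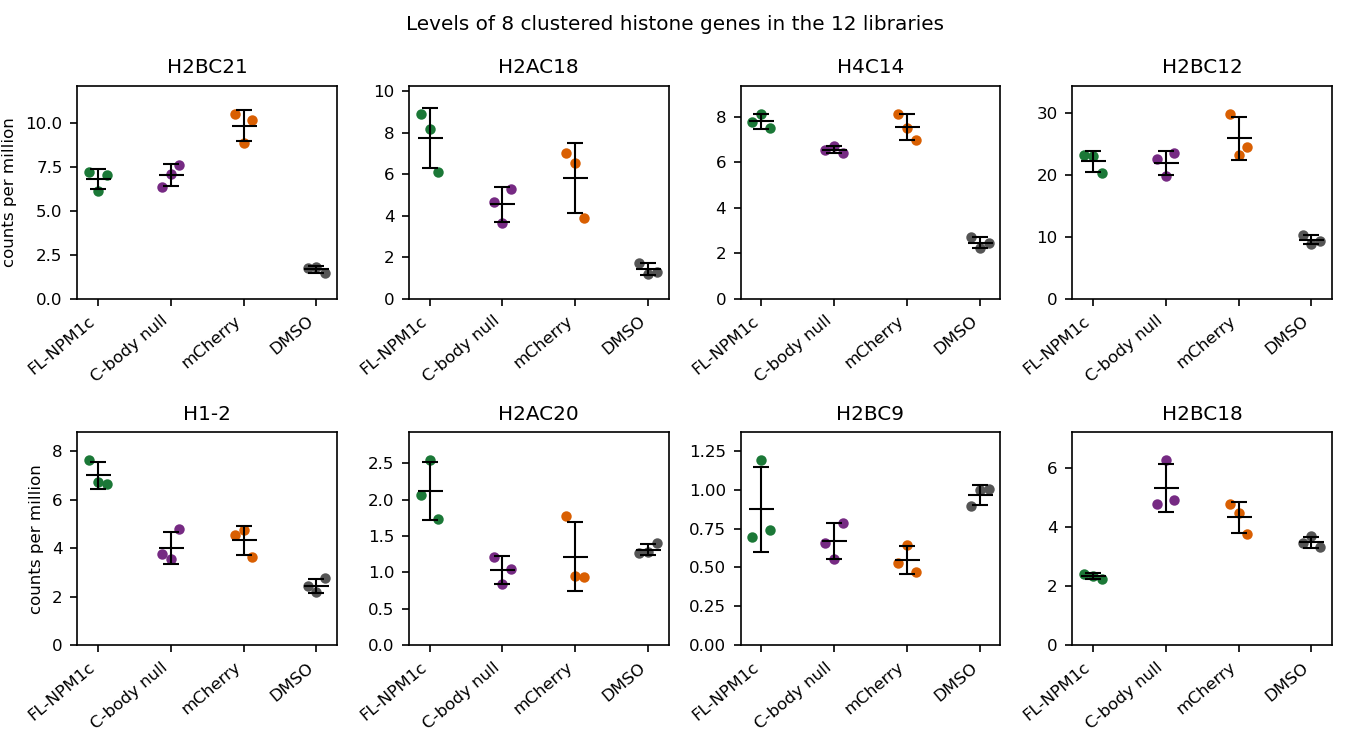
Level (CPM) of 8 clustered histone genes in every library, each point a library and the bars the mean and SD of 3. H2BC21, H2AC18, H4C14 and H2BC12 lie low in NTC DMSO alone, H1-2 and H2AC20 are highest on average in dTAG FL-NPM1c, and H2BC18 is lowest there.

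Back-to-back genes did not always move alike. The H2AC20 gene stands 236 bases from H2BC21, and had 1.77, 0.944 and 0.935 CPM in mCherry cells, against 1.26, 1.28 and 1.40 CPM in DMSO cells. Its log2 fold change of -0.11 ± 0.25 compares with 2.56 ± 0.13 for H2BC21, a difference of 2.67. Within libraries, H2BC21 had 5.94, 9.34 and 10.9 counts for each H2AC20 count in mCherry cells, against 1.37, 1.41 and 1.04 in DMSO cells. In FL-NPM1c cells that ratio was 3.48, 2.41 and 4.05, and in C-body null cells 5.25, 8.48 and 7.23.

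In the other 7 pairs the fold changes lay closer together, with the H2B value minus the H2A value between -0.88 and 0.65. Both genes rose in 4 of the 8 pairs, H2AC6 with H2BC4, H2AC8 with H2BC8, H2AC11 with H2BC11 and H2AC15 with H2BC15. H2AC6 and H2BC4 rose by 1.73 ± 0.15 and 0.85 ± 0.24. H2AC25 rose by 0.71 ± 0.20, while its partner H2BC26 had 0.39 ± 0.28. Neither gene passed in the pairs H2AC7 with H2BC7 and H2AC13 with H2BC13. Differences within a pair were not tested.

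**Figure D3:**
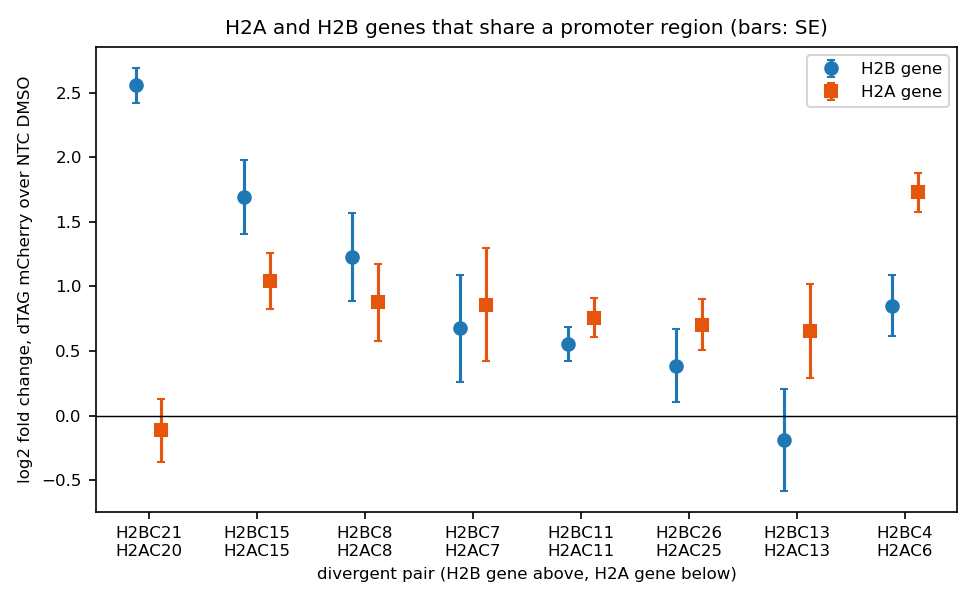
Log2 fold change, dTAG mCherry over NTC DMSO, for the H2B gene (circle) and H2A gene (square) of the 8 back-to-back pairs, with SE bars. The pair H2BC21 and H2AC20 is the widest apart, at 2.56 and -0.11.

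Position and annotation divided the members unevenly. In the block of chromosome 1 between 149782689 and 149887411, 6 of 9 members rose and the median log2 fold change was 1.76. In the first block of chromosome 6 (26055740 to 26285534) 8 of 13 tested members rose and 1 fell, with a median of 0.86. The middle block of chromosome 6 (27132316 to 27146858) had 3 of 4 members higher and a median of 0.66. The last block (27807479 to 27893185) had 3 of 11 members higher and a median of 0.00. In the distal chromosome 1 block H2AC25 rose and H2BC26 did not pass, and H4C16 on chromosome 12 had -0.26 ± 0.37. These blocks share genes of one class and copies that share reads, and no test compared them.

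Of the 23 tested members whose GENCODE 29 transcripts are spliced or longer than 1000 bases, 13 rose and 1 fell, with a median of 0.85. Of the 17 with a short single-exon transcript, 8 rose, with a median of 0.71. The split by RefSeq gene span lay further apart. Of 7 members with a span over 1000 bases 6 rose (median 1.45). Of the 33 tested members with a shorter span 15 rose and 1 fell (median 0.68). H2BC12 and H3C4 are short by GENCODE 29 and long by RefSeq span. By the stem-loop, 12 rose and 1 fell of 21 members with more than 100 transcript bases after it, and 4 rose of 7 with fewer. Of 12 with no match in their annotated transcripts 5 rose. That class can hold genes whose annotated transcript ends before the stem-loop, so it is not a class of genes lacking it. The medians of the 3 classes were 0.85, 0.88 and 0.42. By promoter letters, 9 rose and 1 fell of 17 members with the octamer (median 0.76), and 12 rose of 22 without it (median 0.93). With a TATA box 13 of 23 rose (median 0.85), and without it 8 rose and 1 fell of 16 (median 0.77). With the CCAAT box 18 rose and 1 fell of 32 (median 0.84), and without it 3 of 7 rose (median 0.32). Among H2B genes 6 of 8 rose with a TATA box (median 1.04), and 1 rose and 1 fell of 5 without it (median 0.39). Among H2A genes 5 of 9 rose with it and 2 of 3 without it. Motifs were searched on both strands, so a motif between back-to-back genes was counted for both. The TATA box counted for H2BC4, for example, faces H2AC6. These splits were not tested.

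Most DNA replication genes fell in the mCherry cells. Of 41 DNA replication genes 38 fell, with a median log2 fold change of -0.55. E2F2, a transcription factor of the S-phase genes, had -0.94 ± 0.12, the licensing factor CDC6 -0.77 ± 0.08 and MCM10 -0.76 ± 0.08. Their sum was 4169 to 4199 CPM in mCherry libraries, against 6012 to 6105 CPM in DMSO libraries. Of 22 genes for histone transcription and 3-prime processing 9 fell and 13 did not pass, with a median of -0.26. The S-phase kinase CDK2 fell by 0.66, its partner CCNE2 by 0.58, CASP8AP2, a protein of the histone locus body, by 0.53, NPAT by 0.39 and SLBP by 0.36. SLBP stood at 112, 92.3 and 119 CPM in mCherry cells, against 149, 143 and 124 CPM in DMSO cells.

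Histone genes outside the clusters, whose messages mostly carry poly(A) tails, fell more often than they rose. Of 13 tested, 5 fell and 1 rose. H2AZ1, an H2A variant used throughout the cell cycle, fell by 0.55 on the log2 scale (SE 0.07, adjusted p = 4.07e-05), with 410, 363 and 384 CPM in mCherry cells, against 622, 540 and 534 CPM in DMSO cells. The centromere histone CENPA fell by 0.50 and H2AX, known from DNA damage signalling, by 0.38. H1-10 did not pass (-0.17 ± 0.16).

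Monocyte markers rose in the same comparison, while cell cycle inhibitor genes were split. All 7 monocyte markers rose, with a median log2 fold change of 3.80, and their sum was 2985 to 3436 CPM in mCherry libraries, against 338 to 389 CPM in DMSO libraries. Of 7 cell cycle inhibitor genes 3 rose and 3 fell. CDKN1A, which encodes the CDK inhibitor p21, rose by 2.83 ± 0.09, CDKN2B by 2.27 ± 0.16 and CDKN2A by 1.47 ± 0.13, while CDKN2C, CDKN2D and CDKN1B fell by 0.74, 0.73 and 0.38. Among 11 tested RNAs without poly(A) tails, whose level depends on how completely such RNA is removed, edgeR called 0 in either direction, and 1 was lower at an unadjusted p under 0.05. RN7SK had 0.41 ± 0.31, RN7SL2 -0.32 ± 0.24, RMRP -0.40 ± 0.71 and RPPH1 0.47 ± 0.55. The part of the marker genes in the histone result was not tested.

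**Figure D4:**
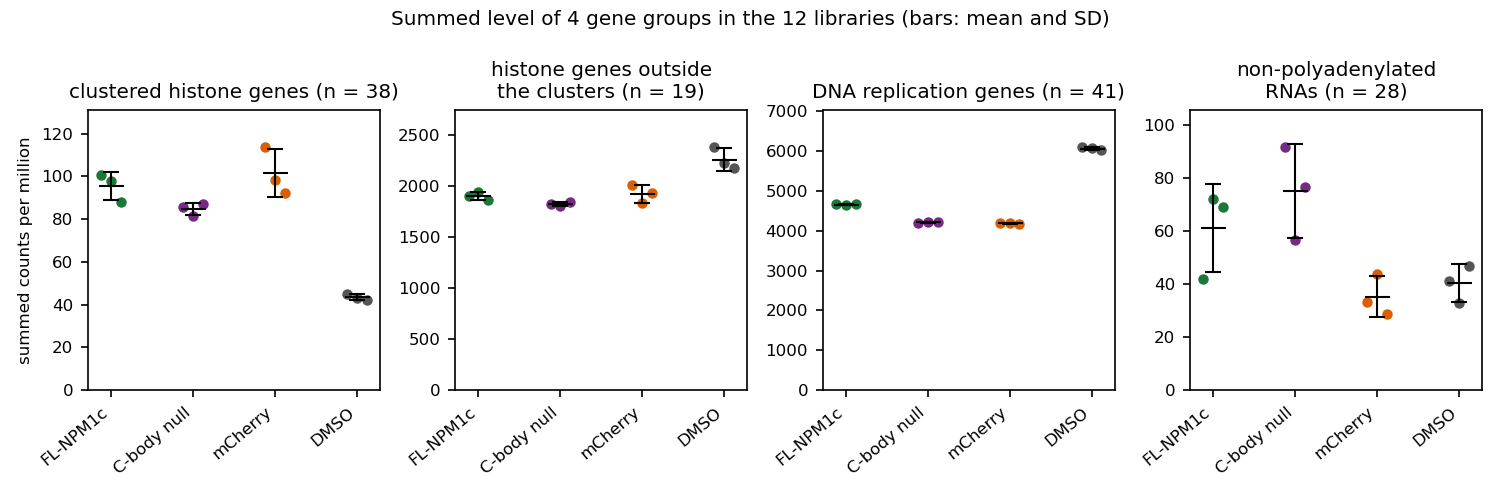
Summed level (CPM) of the 38 clustered histone genes (copies entered a single time), 19 histone genes outside the clusters, 41 DNA replication genes and 28 non-polyadenylated RNAs in each library, with mean and SD of 3. The clustered genes are lowest in NTC DMSO, at 42.2 to 45.1, where the replication genes are highest, at 6012 to 6105.

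The add-back of FL-NPM1c was set against mCherry, with degrader in both groups. The clustered genes did not return together towards the DMSO level: their sum was 100.7, 97.9 and 88.2 CPM in FL-NPM1c libraries, against 113.8, 98.3 and 92.0 CPM in mCherry libraries, and the groups overlapped. Of 40 tested members 3 rose and 4 fell, where 7.58% of all genes were called higher and 7.95% lower (15.5% in all). The median log2 fold change was 0.07. Of the 38 members with 10 or more counts in a library of both groups, 2 rose and 4 fell, since H2AC14 did not reach 10 counts in any mCherry library.

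Lower with FL-NPM1c were H2BC18, H2BC11, H2BC21 and H2AC6. H2BC21 had 7.21, 6.13 and 7.04 CPM in FL-NPM1c cells, against 10.5, 8.81 and 10.2 CPM in mCherry cells, and fell by 0.53 on the log2 scale (SE 0.12, adjusted p = 0.00665). H2BC11 had 3.01, 3.08 and 2.87 CPM in FL-NPM1c cells, against 4.61, 4.40 and 3.88 CPM in mCherry cells, and fell by 0.53 (SE 0.13, adjusted p = 0.0133). In neither gene did the groups overlap. H2AC6 fell by 0.50 (SE 0.14, adjusted p = 0.0248), with 8.91, 8.63 and 8.27 CPM in FL-NPM1c cells, against 14.7, 10.5 and 11.2 CPM in mCherry cells. This call was lost without any of the FL-NPM1c libraries or without mCherry 1, with adjusted p from 0.00617 to 0.106 over the refits.

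H2BC18 had the largest decrease, with 2.42, 2.33 and 2.23 CPM in FL-NPM1c cells, against 4.75, 4.48 and 3.74 CPM in mCherry cells (log2 fold change -0.90 ± 0.14, adjusted p = 0.000517). Its annotated span on chromosome 1 (149782689 to 149812370, minus strand) overlaps FCGR1A, the gene of the high-affinity IgG receptor of monocytes. FCGR1A itself had 16.7, 17.3 and 16.9 CPM in FL-NPM1c cells, against 41.7, 40.9 and 40.9 CPM in mCherry cells, a log2 fold change of -1.28 ± 0.08. How reads in the overlap were assigned is not given in the sources used here, so the value of H2BC18 is uncertain.

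Higher with FL-NPM1c were H1-2, H2AC20 and H2AC14. H1-2 had 7.62, 6.74 and 6.63 CPM in FL-NPM1c cells, against 4.56, 4.74 and 3.64 CPM in mCherry cells, and rose by 0.69 ± 0.14 (adjusted p = 0.00416). Its groups lay apart, and the call was kept whichever library was left out. H2AC20 rose by 0.79 ± 0.23 (adjusted p = 0.0295), with 2.07, 2.54 and 1.74 CPM in FL-NPM1c cells, against 1.77, 0.944 and 0.935 CPM in mCherry cells. The mCherry 1 library lay within the FL-NPM1c range, and the call was lost without FL-NPM1c 1, FL-NPM1c 2, mCherry 2 or mCherry 3 (adjusted p 0.00465 to 0.126 over the refits). H2AC14 was counted 18, 10 and 22 times in FL-NPM1c cells, against 3, 5 and 4 times in mCherry cells, and rose by 1.61 ± 0.44 (adjusted p = 0.0215). It lost the call without FL-NPM1c 1, FL-NPM1c 3 or mCherry 1 (adjusted p 0.029 to 0.0839). The count of higher members was 1 without FL-NPM1c 1.

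Of the DNA replication genes 10 of 41 rose with FL-NPM1c, with a median log2 fold change of 0.10. The licensing factor CDT1 had 0.60 ± 0.14, thymidine kinase TK1 0.54 ± 0.12 and MCM7 0.53 ± 0.10. Among the histone transcription and processing genes SRRT alone of 22 rose, by 0.35 ± 0.11, and NPAT, CASP8AP2 and SLBP had -0.08, 0.00 and -0.03. Outside the clusters 1 of 13 tested genes rose and 1 fell, and H2AX was the one that rose, by 0.35 ± 0.11. Monocyte markers had 3 of 7 lower, and CDKN1A did not pass (-0.16 ± 0.09), while CDKN2C rose by 0.62 and CDKN2B fell by 0.53.

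Several RNAs without poly(A) tails also moved in this comparison, with 4 of 11 higher and a median of 0.84. RMRP had 2.02 ± 0.58, SNORD3A 1.26 ± 0.26 and RN7SL2 0.84 ± 0.24, while RN7SK and RPPH1 had 0.72 ± 0.28 and 0.99 ± 0.46 and did not pass. The sum of all 28 was 41.9 to 72.2 CPM in FL-NPM1c libraries, against 28.7 to 43.9 CPM in mCherry libraries. Their part in the histone differences was not tested. Of the 17 members with a short single-exon transcript 3 rose (median 0.40), and of the 23 with a long or spliced transcript 4 fell (median -0.03).

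The C-body null construct against mCherry changed few genes, with 0.216% called higher and 0.378% lower (0.594% in all). Of 40 tested members 0 rose and 1 fell by edgeR, 1 was higher and 7 lower at an unadjusted p under 0.05, and DESeq2 called 0 higher and 2 lower. The shares of all genes above hold for edgeR's adjusted p alone. None is given for unadjusted p or DESeq2, so those counts cannot be compared with all genes. The median log2 fold change was -0.23, and the sum was 85.6, 81.6 and 87.0 CPM in C-body null libraries, all under the mCherry range of 92.0 to 113.8 CPM. H2AC11, which stands back to back with H2BC11, was the member that fell. It had 1.21, 1.42 and 1.33 CPM in C-body null cells, against 2.40, 2.17 and 2.04 CPM in mCherry cells (log2 fold change -0.74 ± 0.15, adjusted p = 0.0331). The groups did not overlap, yet the call was kept only without mCherry 2 among the 6 refits, with adjusted p from 0.025 to 0.20. H2BC21 had 6.35, 7.08 and 7.58 CPM in C-body null cells, also under the mCherry libraries, and did not pass (-0.48 ± 0.12, adjusted p = 0.0858).

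The companion genes changed as little with C-body null. Of 41 replication genes, 22 processing genes and 13 outside histone genes edgeR called 0 in either direction. At an unadjusted p under 0.05, 3 replication genes were lower, 2 processing genes were lower, and of the outside histone genes 1 was higher and 4 were lower. Without the share of all genes at that threshold, these counts are not read as decreases of the lists. Monocyte markers had 1 of 7 higher. Of the RNAs without poly(A) tails RN7SL2 rose by 1.52 ± 0.24 and RN7SL1 by 1.36 ± 0.22, with 33.9, 20.8 and 26.6 CPM of RN7SL2 in C-body null cells, against 8.57, 12.5 and 6.92 CPM in mCherry cells. These RNAs form the core of the signal recognition particle.

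FL-NPM1c against C-body null compared the add-back constructs with each other. More clustered histone genes rose than fell with FL-NPM1c: 6 of 40 rose and 1 fell, where 4.82% of all genes were called higher and 4.86% lower (9.68% in all). The 6 count the copies H2AC18 and H2AC19, whose reads were not separable, as separate genes. They also include H4C11 and H4C12, whose reads may be shared, so the 6 are not independent. The median log2 fold change was 0.35, against 0.0055 over all genes, and 33 of the 40 values were above 0. H2AC14 and H4C5 met the count rule largely through FL-NPM1c libraries, with no C-body null library at 10 counts, which favours values above 0. Of the 37 members with 10 or more counts in a library of both groups, 6 rose and 1 fell. The sums were 100.7, 97.9 and 88.2 CPM in FL-NPM1c libraries, against 85.6, 81.6 and 87.0 CPM in C-body null libraries, and did not overlap.

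**Figure D5:**
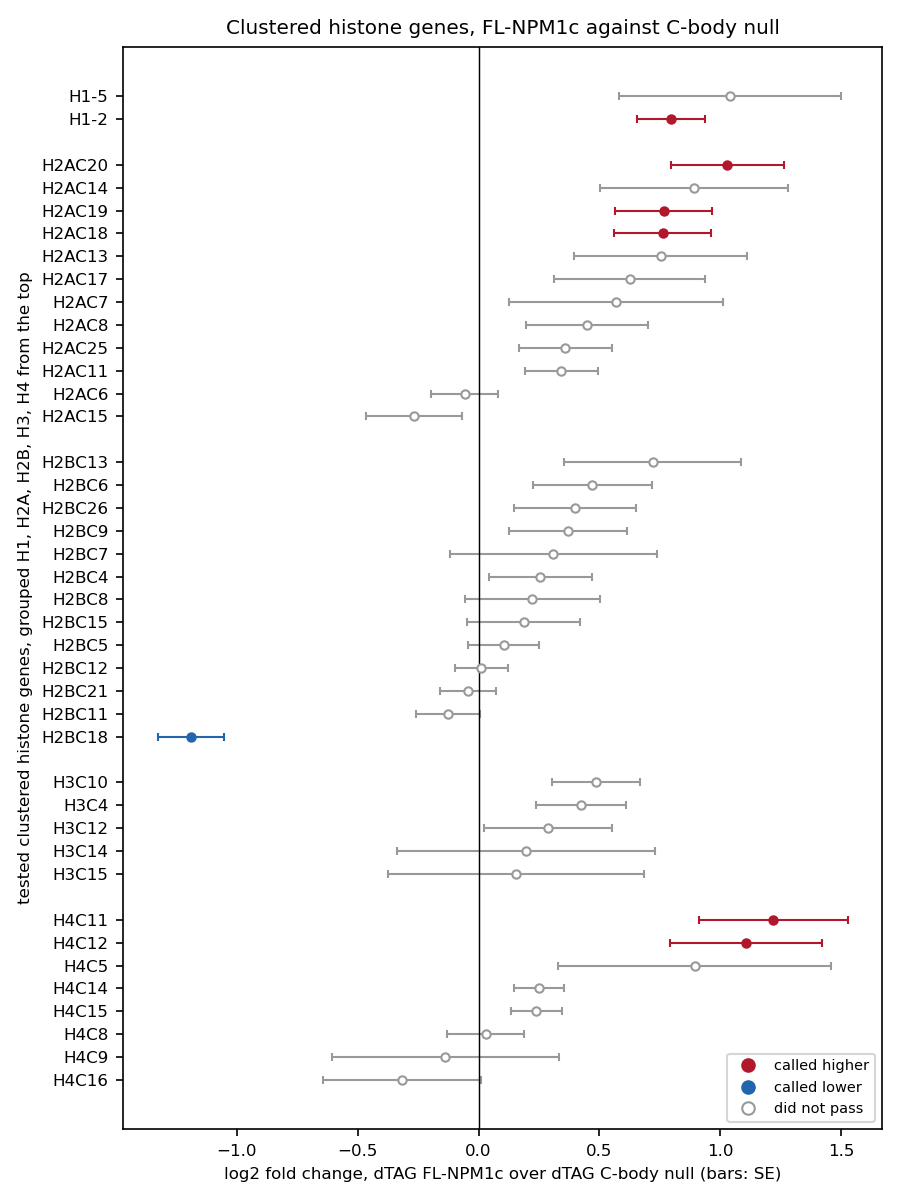
Log2 fold change of each of the 40 tested clustered histone genes, dTAG FL-NPM1c over dTAG C-body null, with SE bars; filled points passed the test. H4C11, H4C12, H2AC20, H1-2, H2AC19 and H2AC18 are called higher, at 0.76 to 1.22, and H2BC18 lower, at -1.19.

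H1-2 had 7.62, 6.74 and 6.63 CPM in FL-NPM1c cells, against 3.74, 3.54 and 4.77 CPM in C-body null cells. It rose by 0.80 ± 0.14 (adjusted p = 0.00126) with groups that lay apart, and it was the only one of the 6 whose call was kept whichever of the 6 libraries was left out. H2AC20 rose by 1.03 ± 0.23 (adjusted p = 0.00899), with 2.07, 2.54 and 1.74 CPM in FL-NPM1c cells, against 1.21, 0.835 and 1.05 CPM in C-body null cells. Its groups did not overlap, and the call was lost without FL-NPM1c 2 or C-body null 2 (adjusted p 0.00916 to 0.0661).

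H4C11 rose by 1.22 ± 0.31 (adjusted p = 0.0177) and its near neighbour H4C12 by 1.11 ± 0.31 (adjusted p = 0.0342). H4C11 had 1.33, 1.52 and 0.771 CPM in FL-NPM1c cells, against 0.495, 0.329 and 0.691 CPM in C-body null cells. H4C12 had 1.39, 1.94 and 0.952 CPM in FL-NPM1c cells, against 0.660, 0.405 and 0.882 CPM in C-body null cells. The counts of these genes differed by at most 18 in a library, so reads may be shared between them. H2AC19 had 8.97, 8.21 and 6.10 CPM in FL-NPM1c cells, against 4.67, 3.67 and 5.29 CPM in C-body null cells, and rose by 0.77 ± 0.20 (adjusted p = 0.0216), as did its copy H2AC18 by 0.76 ± 0.20. In FL-NPM1c the replicate 3 library was the lowest for each of these genes. The calls of H4C11, H4C12 and H2AC19 were lost without FL-NPM1c 1, FL-NPM1c 2, C-body null 1 or C-body null 2, and the count of higher members then fell to 1 or 2.

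H2BC18 had 2.42, 2.33 and 2.23 CPM in FL-NPM1c cells, against 4.75, 6.25 and 4.91 CPM in C-body null cells (log2 fold change -1.19 ± 0.14, adjusted p = 2.55e-05). The overlapping FCGR1A had -1.43 ± 0.08. H2BC21, with the largest change in mCherry over DMSO cells, had -0.04 ± 0.12 between the add-back groups and did not pass, with 7.21, 6.13 and 7.04 CPM in FL-NPM1c cells, against 6.35, 7.08 and 7.58 CPM in C-body null cells.

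The 6 higher members all have a short single-exon transcript in GENCODE 29. Of 17 such members 6 rose, with a median of 0.75, and of 23 with a long or spliced transcript 1 fell, with a median of 0.22. In RNAs without poly(A) tails, SNORD3A rose by 1.00 ± 0.25 among 11 tested and the median was 0.12, while RN7SL2 had -0.68 ± 0.23 and RMRP 1.43 ± 0.53, neither of which passed. The summed level of all 28 overlapped, at 41.9 to 72.2 CPM in FL-NPM1c and 56.8 to 91.9 CPM in C-body null libraries. Their part in the difference was not tested.

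Replication genes had 4 of 41 higher with FL-NPM1c, with a median of 0.10, CDT1 at 0.69 ± 0.14, TK1 at 0.56 ± 0.12 and E2F2 at 0.48 ± 0.12. Their sum was 4639 to 4667 CPM in FL-NPM1c libraries, against 4198 to 4222 CPM in C-body null libraries. Of the 22 processing genes edgeR called 0 either way, and 1 was higher at an unadjusted p under 0.05. Outside the clusters 3 of 13 histone genes rose. H2AJ, an H2A variant linked to senescent cells, rose by 0.71 ± 0.11, H2AX by 0.59 ± 0.11 and H1-10 by 0.54 ± 0.16. H2AX had 52.9, 56.0 and 47.1 CPM in FL-NPM1c cells, against 32.5, 30.8 and 40.3 CPM in C-body null cells. Of the monocyte markers 6 of 7 were lower with FL-NPM1c.

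Both add-back groups were also set against NTC DMSO. These comparisons and that of mCherry share the 3 DMSO libraries, so their values are given side by side. With FL-NPM1c 22 of 40 members rose and 1 fell, with 14.6% of all genes called higher and 13.3% lower (27.9% in all). With C-body null 17 rose, with 14.1% of all genes called higher and 12.4% lower (26.6% in all). The 22 and the 17 each count the copies H2AC18 and H2AC19, and H4C14 and H4C15, as separate genes. The 22 also include H4C11 and H4C12, whose reads may be shared. By edgeR and by DESeq2 0 fell with C-body null, and 1 was lower at an unadjusted p under 0.05. The medians were 0.92 and 0.48, against 0.79 for mCherry. Among members with 10 or more counts in a library of both groups, 22 of 36 rose and 1 fell with FL-NPM1c. The same count for C-body null was 17 of 34 higher. Without each library in turn the higher members numbered 16 to 20 for FL-NPM1c cells and 15 to 16 for C-body null cells.

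Over DMSO, H2BC21 had log2 fold changes of 2.03 ± 0.13 with FL-NPM1c, 2.07 ± 0.14 with C-body null and 2.56 ± 0.13 with mCherry. H2AC19 had 2.44 ± 0.23, 1.68 ± 0.24 and 2.04 ± 0.23 in the same order of groups. H4C8 had 1.74 ± 0.19, 1.71 ± 0.19 and 1.98 ± 0.19, and H2BC5 1.68 ± 0.16, 1.58 ± 0.17 and 1.63 ± 0.17. H2BC12 had 1.22 ± 0.11, 1.21 ± 0.11 and 1.45 ± 0.11, and H4C14 1.67 ± 0.11, 1.42 ± 0.12 and 1.62 ± 0.11. All of these passed in each comparison.

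H1-2 was graded differently, with 1.51 ± 0.15 in FL-NPM1c, 0.72 ± 0.15 in C-body null and 0.82 ± 0.15 in mCherry cells over DMSO. H4C11 and H4C12 rose with FL-NPM1c, by 0.90 ± 0.30 and 1.07 ± 0.31, and did not pass with C-body null (-0.32 and -0.04) or mCherry (0.00 and 0.29). H2AC20 rose by 0.68 ± 0.23 with FL-NPM1c and did not pass with C-body null (-0.35 ± 0.25). H2BC18 fell by 0.58 in FL-NPM1c cells and rose by 0.61 ± 0.14 in C-body null cells, while FCGR1A had -0.85 ± 0.08 and 0.59 ± 0.07 in the same comparisons. H2BC9, lower with mCherry, had -0.16 ± 0.23 in FL-NPM1c cells and -0.53 ± 0.25 in C-body null cells, and passed in neither.

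Replication genes were lower than in DMSO cells in 33 of 41 cases for FL-NPM1c cells and 39 of 41 for C-body null cells. Of the 22 histone transcription and processing genes 12 fell and 2 rose with FL-NPM1c, and 13 fell and 2 rose with C-body null. SLBP fell by 0.39 and 0.43 and NPAT by 0.47 and 0.48 in FL-NPM1c and C-body null cells. HINFP, a transcription factor of H4 genes, rose by 0.36 ± 0.09 and 0.37 ± 0.09. RNU7-1, a gene for the U7 RNA that guides histone message cleavage, fell by 0.80 in FL-NPM1c cells (SE 0.20, adjusted p = 0.00749) and by 0.57 in C-body null cells (SE 0.20, adjusted p = 0.0467).

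RNAs without poly(A) tails moved in these comparisons too. Of 11 tested, 5 rose and RNU7-1 fell with FL-NPM1c, with a median log2 fold change of 0.82. The 5 were RNU1-1 at 1.70 ± 0.54, RMRP at 1.63 ± 0.55, SNORD3A at 1.56 ± 0.26, RPPH1 at 1.45 ± 0.48 and RN7SK at 1.14 ± 0.29. With C-body null 2 rose and RNU7-1 fell, with a median of 0.51, and the 2 were RN7SL2 at 1.20 ± 0.23 and RN7SL1 at 1.07 ± 0.22. The sum of all 28 was 41.9 to 72.2 CPM in FL-NPM1c and 56.8 to 91.9 CPM in C-body null libraries, against 33.0 to 47.0 CPM in DMSO libraries. Their part in the 22 and 17 higher clustered genes was not tested.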

How the data were processed

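RNA of 12 libraries of OCI-AML3 cells, per the labels' protocols, was measured. The authors deposited whole-number gene counts, not normalized; STAR, featureCounts, DESeq2 and hg38 are named in the submitters' processing notes, without roles or versions. Not given in the sources used here: strand setting, multi-mapping setting and annotation release. Of 78936 lines 6 were broken, from 2 genes, and left out. Columns were matched to samples by library number and groups followed the titles.

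The edgeR 4.0.16 package (R 4.3.3) was applied with filterByExpr by group (24064 genes, 0.0795% of counts removed), TMM factors (0.975 to 1.02), and 1 robust quasi-likelihood fit of all libraries with contrasts. All p-values are two-sided, Benjamini-Hochberg adjusted over the genes tested. Same-numbered replicates did not all correlate above 0.1 in any comparison, so no block was used in the main fit. The test was checked on simulated data. Stem-loops were searched in GENCODE 29 transcripts and motifs in RefSeq promoters.

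Genes named were the 2 members with most counts in each class, up to 5 called members by size in each direction and comparison, members called in opposite directions, every member where a count is 5 or fewer, and up to 3 called genes per companion list; others were added beside them, and 1 gene of a companion list is not reported here. The members and lists were chosen with earlier results of these data known. Alternatives were DESeq2 1.42.0, other scalings and filters, other thresholds, the 2 groups alone, a replicate block, and each library left out.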

Additional observations from a re-analysis of the deposited data

How the results depend on the processing

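No fold change of a single gene reversed direction. Re-runs with other settings gave the same result for single genes in 353 cases and a weaker one in 45. The counts of members, which have no direction to reverse, stayed the same in 156 re-runs and moved in 24. Of the member counts, higher with FL-NPM1c against mCherry was 5 with no low-count filter. Lower with C-body null against mCherry was 0 with no low-count filter, with the replicate block and with only the 2 groups compared, and 2 with DESeq2. Lower with mCherry against DMSO was 0 with at least 50 counts in 3 libraries. With H2BC18 left out, a setting chosen after seeing the data, lower with FL-NPM1c was 0 against both C-body null and DMSO. Leaving out each library in turn gave 17 to 21 higher and 0 to 1 lower for mCherry against DMSO, 1 to 4 and 3 to 4 for FL-NPM1c against mCherry, 0 and 0 to 3 for C-body null against mCherry, 1 to 6 and 1 for FL-NPM1c against C-body null, 16 to 20 and 1 for FL-NPM1c against DMSO, and 15 to 16 and 0 for C-body null against DMSO. The causes of these shifts were not tested.

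Same-numbered libraries did not all correlate above 0.1 in any comparison, so they were not treated as pairs. In C-body null against DMSO they had correlations of 0.084 to 0.141, against -0.147 to 0.069 for libraries of different number. Whether the numbers pair the libraries there was not tested. With the replicate block the adjusted p of H3C15 was 0.0535 in mCherry against DMSO, that of H2AC11 0.0885 in C-body null against mCherry and that of H4C12 0.0553 in FL-NPM1c against C-body null. H2AC20 in FL-NPM1c against mCherry had 0.0618 with only the 2 groups. Few counts limit the lowest members. H1-4, H1-5, H2AC7, H2AC14, H2BC7, H3C14, H3C15, H4C5 and H4C9 had under 25 counts in every library.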

Other observations

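Histone chaperones, which carry histones to and from DNA, were chosen as a companion list with results known. In mCherry against DMSO cells 13 of 27 fell, with a median log2 fold change of -0.24. The CAF-1 subunits CHAF1B and CHAF1A, which deposit new histones at replication forks, fell by 0.76 and 0.68, and HJURP, the chaperone of CENPA, by 0.62. With FL-NPM1c against mCherry 8 of 27 rose and 2 fell. TONSL rose by 0.59 ± 0.14 (SE) and CHAF1A by 0.39 ± 0.09, while ANP32E, which removes H2A.Z, fell by 0.47 and ASF1A by 0.40. NPM1, itself a histone chaperone, rose by 0.40 ± 0.09, with construct RNA included. With C-body null against mCherry NPM1 rose by 0.62 ± 0.09 and was the single chaperone gene called. With FL-NPM1c against C-body null TONSL and CHAF1B rose, by 0.53 and 0.27, and ANP32E fell by 0.33.

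The 28 clustered histone symbols under the count rule were summed for description. They reached 2.03, 2.12 and 2.12 CPM in FL-NPM1c libraries, 0.934, 1.21 and 1.00 CPM in C-body null libraries, 1.60, 1.33 and 1.24 CPM in mCherry libraries and 1.46, 1.18 and 1.59 CPM in DMSO libraries. The FL-NPM1c libraries were the highest, and the mCherry and DMSO libraries overlapped.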
